A study of Mus musculus with 96 samples.

Results

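The chromatin around Mt1 and Mt2, the metallothionein genes of mouse liver, was described from 11 accessible regions among 77002 measured in hepatocyte and macrophage nuclei. The members were every peak annotated to Mt1 or Mt2 within 100 kb of its transcription start site (TSS), 8 of 46832 peaks in the hepatocyte table and 3 of 30170 in the macrophage table. No peak annotated to either gene lay farther away. The farthest members were Mt1 +7675 bp in hepatocyte and Mt1 +12185 bp in macrophage nuclei. The genes were chosen because their peaks differed between fasted and fed mice, so that this contrast is described below without a test.

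ATAC-seq, which reads out DNA that a transposase can reach, was done on tagged nuclei pulled from the liver with beads (INTACT). The livers came from female HEP-INTACT mice for hepatocyte nuclei and from female MAC-INTACT mice for macrophage nuclei. Food was withdrawn at ZT12, when the lights go off and mice begin to feed, and the fasted mice were taken 3, 8, 16 or 24 h later (ZT15, ZT20, ZT4 and ZT12). The fed mice had food ad libitum and were taken at the same hours. Each of the 16 groups had 4 mice. The labels name no strain or age. They spell out no driver of the nuclear tag, but the feeding state of every macrophage sample ends in the letters lys, which they do not explain. The time without food and the hour of the day move together in the fasted mice, and the fed mice of the same hour control for that hour.

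Metallothioneins are small proteins rich in cysteine that bind zinc and copper, buffer the free metal in the cell and can take up reactive oxygen. Their genes are switched on by zinc through the factor MTF1, which binds metal response elements in their promoters, and by glucocorticoids, the steroid hormones that rise in fasting and before the active phase. The liver is a main site of their expression in the mouse.

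Mt2 and Mt1 lie in this order on the plus strand of chromosome 8, with their TSS 6471 bp apart in mm10. The 250 bases before each RefSeq start (build GRCm38.p6) are shown because the start peaks of both genes lie on them. Capitals mark matches to the metal response element, searched as TGCACNC or TGCGCNC on both strands. The third sequence precedes the start of the predicted noncoding RNA gene Gm39228, which lies inside the peak 4267 bp downstream of the Mt1 TSS.
Mt2, chr8:94172368-94172617: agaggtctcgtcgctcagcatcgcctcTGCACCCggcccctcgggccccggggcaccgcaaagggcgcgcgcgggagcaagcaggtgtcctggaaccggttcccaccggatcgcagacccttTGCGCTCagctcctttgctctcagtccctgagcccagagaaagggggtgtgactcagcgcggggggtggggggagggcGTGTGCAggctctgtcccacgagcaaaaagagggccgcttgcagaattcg
Mt1, chr8:94178839-94179088: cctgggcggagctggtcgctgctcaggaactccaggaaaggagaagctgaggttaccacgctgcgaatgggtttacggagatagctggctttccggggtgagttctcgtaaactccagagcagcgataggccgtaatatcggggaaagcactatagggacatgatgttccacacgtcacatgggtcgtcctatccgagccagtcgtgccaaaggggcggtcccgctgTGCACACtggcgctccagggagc
Gm39228, chr8:94183169-94183418: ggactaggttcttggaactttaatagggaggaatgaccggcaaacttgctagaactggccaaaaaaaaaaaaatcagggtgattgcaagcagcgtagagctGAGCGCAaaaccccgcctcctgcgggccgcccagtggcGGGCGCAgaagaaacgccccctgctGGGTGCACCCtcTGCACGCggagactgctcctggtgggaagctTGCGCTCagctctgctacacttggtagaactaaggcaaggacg

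All 3 windows held the metal response element, and the window of Gm39228 held the most. It had 6 matches, of which a pair on opposite strands overlap, and 6 of the 32851 RefSeq promoter windows of this length held at least as many. The Mt2 window had 3 matches, a number reached by 1.26% of all windows. The Mt1 window had 1, as 21.4% of all windows had at least 1. Another 2 matches stood in the first 50 bases after its RefSeq start, where Mt2 and Gm39228 had 1 each. The counts hold for windows placed on the RefSeq starts, and bases beyond these 50 were not searched. Every match before the start lay inside a member peak, in the −138 bp peak for Mt2, the −12 bp peak for Mt1 and the +4267 bp peak for Gm39228. The glucocorticoid receptor hexamer AGAACA, found in 16.1% of all windows, had no match in the 3 windows. The E-box CACGTG, found in 6.02% of all windows, had none either. The antioxidant response element TGACNNNGC, in 10.2% of all windows, occurred once in the Mt2 window. The GC box GGGCGG, in 32.7% of all windows, occurred 2 times in the Mt1 window and once in that of Gm39228. These are matches of letters, not measured binding. Member peaks outside the searched bases, such as Mt2 −1203 bp, were not searched for any motif.

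A peak is a stretch of 200 bp, its level is given in normalized reads as deposited by the authors, and a difference is fasted minus fed on the scale of log2(normalized reads + 2), given with its standard error. In bulk nuclei, a larger share of nuclei with an open site and a wider opening in each nucleus cannot be told apart. The Mt2 peaks at −138 bp (chr8:94172380-94172580) and +60 bp (chr8:94172578-94172778) are neighbours that share 2 bp, so that a read may count in both.

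At 3 h the Mt2 start had the largest differences of all members. Its +60 bp peak had 180.1, 144, 175 and 163 normalized reads in fasted hepatocyte nuclei, against 10.3, 12.5, 17.1 and 3.63 in fed ones. The lowest fasted mouse stood far above the highest fed mouse, and the means were 165 ± 16.0 and 10.9 ± 5.62 (SD, n = 4 each), a ratio of 15.2 and a log2 difference of 3.82 ± 0.31. The fed values of this peak rest on 5 to 25 reads a mouse. At −138 bp, where the 3 matches of the Mt2 promoter lie, the values were 104, 70.5, 97.1 and 71.1 in fasted mice, against 1.93, 5.90, 4.11 and 1.45 in fed mice. The fed values rest on 2 to 8 reads a mouse, and the log2 difference was 4.10 ± 0.40. With an offset of 8 in place of 2 it was 3.04.

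The Mt1 start was accessible in fed mice already. Its −12 bp peak (chr8:94178977-94179177) had 291, 238, 217 and 208 normalized reads in fasted mice at 3 h, against 73.2, 69.3, 76.1 and 60.2 in fed mice. The groups were far apart here too, but the fed level was 6.40 times that of Mt2 +60 bp, and the log2 difference was 1.74 ± 0.16. In fasted mice the mean of Mt1 −12 bp, 238 ± 37.3 (SD, n = 4), was 1.44 times that of Mt2 +60 bp.

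The flanking peaks gave smaller ratios than the Mt2 start. The +4267 bp peak (chr8:94183256-94183456), on the start of Gm39228, had 163, 119, 160.4 and 122 normalized reads in fasted mice at 3 h, against 34.7, 28.8, 32.2 and 31.9 in fed mice. The fed mice differed little among themselves, and the log2 difference was 2.06 ± 0.17, larger than at the Mt1 start. Mt2 +1072 bp (chr8:94173590-94173790), at the 3′ end of the gene, had means of 35.0 ± 13.4 in fasted and 5.33 ± 2.17 in fed mice, Mt2 −1203 bp (chr8:94171315-94171515) 124 ± 11.5 and 48.7 ± 7.92, and Mt2 −7301 bp (chr8:94165217-94165417) 45.2 ± 9.56 and 20.2 ± 6.40 (SD, n = 4 each). Mt1 +7675 bp (chr8:94186664-94186864) had the smallest difference, with 70.7 ± 16.1 in fasted and 40.1 ± 7.65 in fed mice. The last 3 of these sites are intergenic, as is +4267 bp in the authors' annotation.

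At 3 h every fasted mouse stood above every fed mouse at all 8 hepatocyte members, and 13.1% of all hepatocyte peaks tested did so. The count was 7 of 8 at 8 h (18.2% of all peaks), 5 of 8 at 16 h (14.2%) and 0 of 8 at 24 h (25%). The members were chosen on this contrast, and nothing is read from the counts. The median difference of the 8 members was 1.90, 1.47, 0.84 and 0.41 at 3, 8, 16 and 24 h, while the median of all hepatocyte peaks was −0.01, 0.08, 0.10 and 0.16.

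At 8 h the groups stayed apart at the 3 start peaks, and at 16 h they overlapped at Mt2 −138 bp. At 8 h, Mt2 +60 bp had 189, 198, 135 and 190.4 normalized reads in fasted mice, against 29.4, 26.0, 12.5 and 11.3 in fed mice, and a log2 difference of 3.13 ± 0.31. Mt1 −12 bp had 211, 244, 206 and 286 in fasted mice, against 93.6, 101, 84.3 and 53.0 in fed mice, and a difference of 1.52 ± 0.16. At 16 h Mt2 +60 bp had 86.4, 233, 222 and 145 in fasted mice, against 38.5, 53.0, 46.2 and 55.3 in fed mice. No fasted mouse reached into the fed range of this peak, but the fasted mice differed by more than at 3 or 8 h. Mt1 −12 bp had 175, 307, 248 and 196 in fasted mice at 16 h, against 131, 129.7, 157 and 167 in fed mice, and a difference of 0.63 ± 0.16.

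At 8 h the difference of +4267 bp was above those of the other flanking peaks, where that of Mt2 +1072 bp had been at 3 h. At +4267 bp the values were 147, 133, 112 and 128 in fasted mice, against 48.7, 41.8, 39.0 and 30.4 in fed mice, a log2 difference of 1.66 ± 0.17. Mt1 +7675 bp averaged 81.2 ± 9.62 in fasted and 39.3 ± 8.36 in fed mice at 8 h, and 84.4 ± 19.0 and 55.3 ± 2.40 at 16 h (SD, n = 4 each). Its differences were 0.78, 1.03, 0.57 and 0.39 at 3, 8, 16 and 24 h, the highest at 8 h rather than at 3 h. Mt2 +1072 bp had 24.6 ± 7.77 in fasted and 7.75 ± 2.20 in fed mice at 8 h, and 22.6 ± 5.54 and 6.59 ± 2.40 at 16 h, again without overlap.

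The share of each peak in the reads of the locus differed between the groups. Mt2 +60 bp held 18.4% of the summed normalized reads of the 8 members in fasted mice at 3 h, against 4.6% in fed mice, and 19.9% against 12.5% at 24 h. Mt2 −1203 bp held 13.8% in fasted and 21.3% in fed mice at 3 h. The summed level was 905 ± 128 in fasted and 230.2 ± 28.3 in fed mice at 3 h, and 710.3 ± 94.1 and 523 ± 114 at 24 h (SD, n = 4 each).

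The labels give library numbers but no sets, and 3 sets were formed here from runs of these numbers. Within each set, the log2 difference of Mt2 +60 bp at 3 h was 3.61, 3.21 and 4.87, and that of Mt1 −12 bp 1.86, 1.49 and 1.75. The sets with 3.21 and 4.87 held 1 mouse of each group. At 24 h the differences of Mt2 +60 bp were 1.54, −0.10 and 1.60. The set with −0.10 held 1 mouse of each group, and its fed mouse was replicate 3, so that this value rests on single mice.

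**Figure D1:**
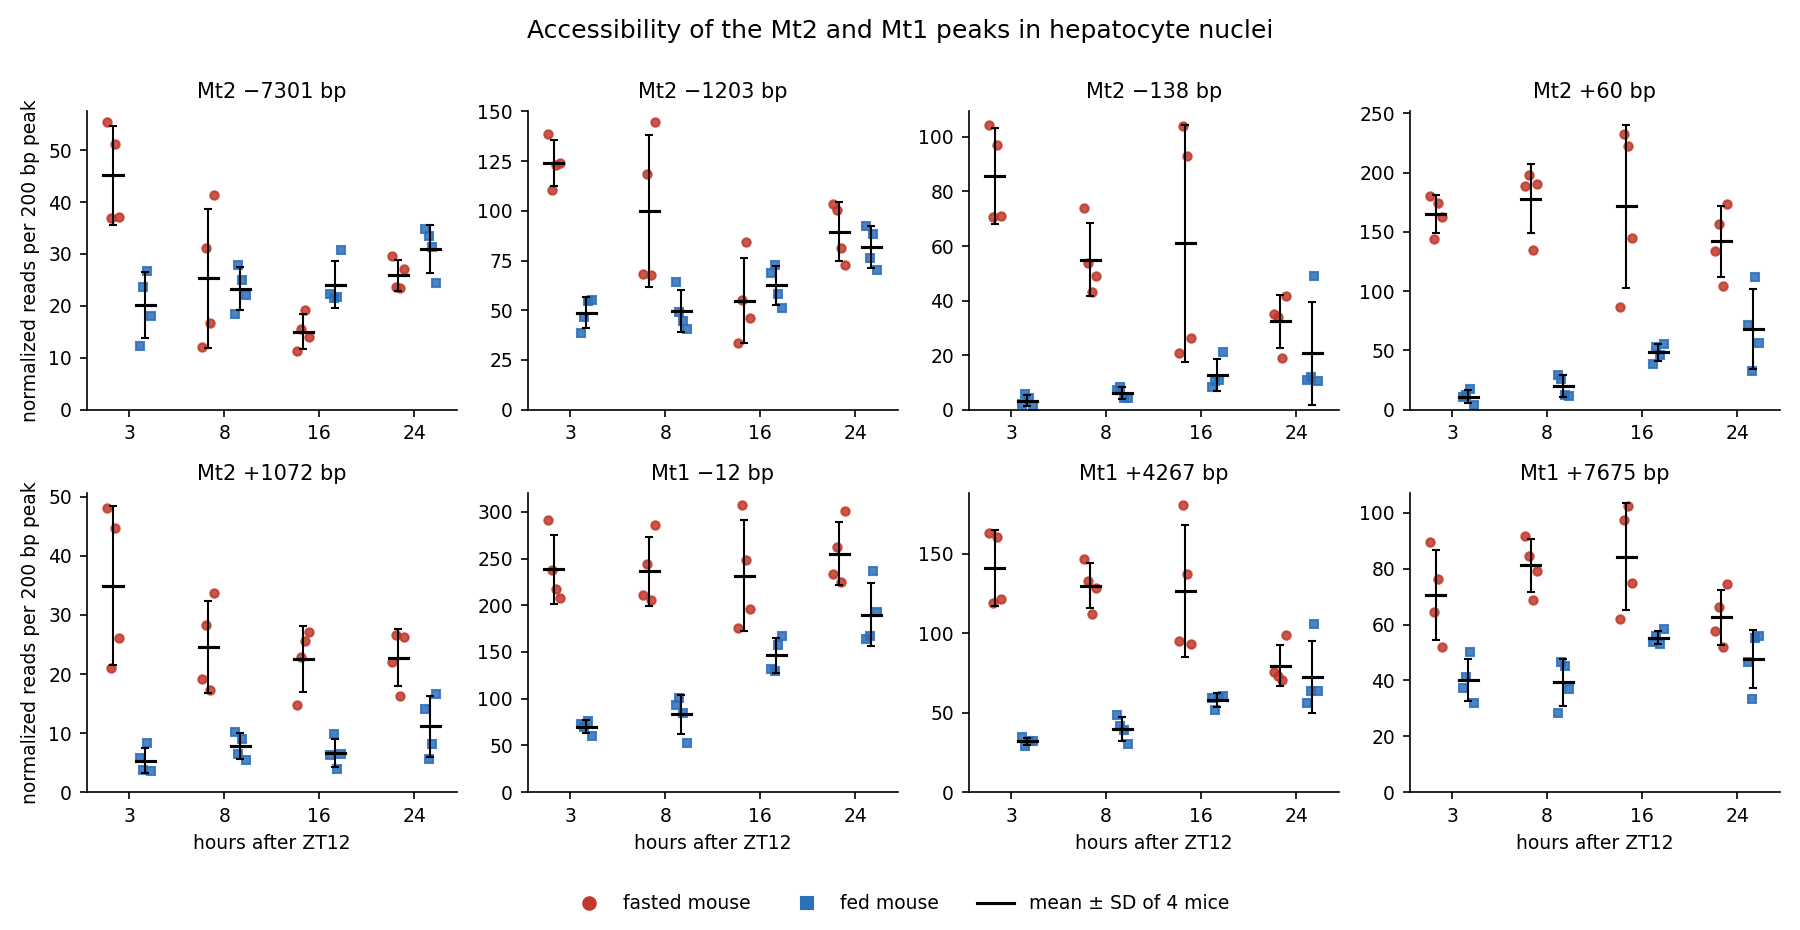
Normalized reads of the 8 hepatocyte members (y axes from 0, a scale for each peak) by hours after ZT12; circles are fasted mice and squares to their right fed mice, 4 a group, with bars for the mean ± SD. The fasted means of Mt1 −12 bp stay between 232 and 255 while the fed mice climb toward them, and those of Mt2 −7301 bp and −1203 bp fall to their lowest mean at 16 h.

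The fed mice changed most over the day at the starts of both genes. At Mt1 −12 bp the fed level was 69.7 ± 6.91, 83.0 ± 21.2, 146 ± 18.6 and 190.0 ± 33.6 normalized reads at 3, 8, 16 and 24 h (SD, n = 4), so that it was lowest at ZT15, early in the feeding phase, and highest at ZT12, the end of the light phase. At Mt2 +60 bp it was 10.9 ± 5.62, 19.8 ± 9.22, 48.2 ± 7.56 and 68.1 ± 33.5. The log2 difference of fed mice at 24 h over fed mice at 3 h was 1.41 ± 0.16 at Mt1 −12 bp and 2.44 ± 0.31 at Mt2 +60 bp. In limma's moderated F test over the 4 fed groups, Benjamini-Hochberg adjusted over all hepatocyte peaks, time passed for Mt1 −12 bp (adjusted p = 1.30e-08) and Mt2 +60 bp (adjusted p = 2.52e-07).

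Of the 8 members, 5 passed this test, where 21.1% of all hepatocyte peaks did. The other 3 that passed were +4267 bp (adjusted p = 3.44e-05, limma), which averaged 31.9 in fed mice at 3 h and 72.5 at 24 h, Mt2 −138 bp (adjusted p = 0.00239) and Mt2 −1203 bp (adjusted p = 0.0198). The result of Mt2 −1203 bp was lost without fed 24 h replicate 1 (adjusted p = 0.0698) or replicate 3 (adjusted p = 0.0573). Mt2 −7301 bp, Mt2 +1072 bp and Mt1 +7675 bp did not pass (adjusted p = 0.253, 0.195 and 0.0932). These tests are not the contrast that chose the genes, but the same fed mice enter both. A low fed level at 3 h enlarges both that contrast and the change of the fed mice over time. The adjusted p and counts of fed mice over time, here and in macrophage nuclei below, are therefore a description.

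In fasted mice 4 of the 8 members passed the same F test over the 4 fasted groups, where 52.1% of all hepatocyte peaks did, and neither Mt1 −12 bp nor Mt2 +60 bp was among them. At Mt1 −12 bp the fasted mean was 238 ± 37.3, 237 ± 36.9, 232 ± 59.2 and 255 ± 34.1 normalized reads at 3, 8, 16 and 24 h (SD, n = 4), and time did not pass (adjusted p = 0.793, limma). At Mt2 +60 bp the fasted means were 165 ± 16.0, 178 ± 28.9, 171 ± 68.9 and 142 ± 29.8 (adjusted p = 0.775). At these peaks the log2 difference between fasted and fed mice went to 0.43 ± 0.16 and 1.14 ± 0.31 at 24 h. Their fasted level moved by at most 1.25 times between times, and their fed level by 2.73 and 6.25 times. Mt2 −138 bp, the remaining start peak, differed from them. Its fasted mean went from 85.7 ± 17.5 at 3 h to 32.4 ± 9.70 at 24 h, by 2.64 times, and its fed level moved by 6.16 times.

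The 24 h groups overlapped at both starts. Mt2 +60 bp had 134, 156, 104 and 174 normalized reads in fasted mice at 24 h, against 71.6, 32.6, 112 and 56.0 in fed mice. Fed replicate 3 alone reached into the fasted range. At Mt1 −12 bp the values were 233, 263, 225 and 300.4 in fasted mice and 164, 167, 237 and 192 in fed mice, and again fed replicate 3 was the one that overlapped. Without fed replicate 3, the log2 difference at 24 h was 1.42 at Mt2 +60 bp and 0.54 at Mt1 −12 bp. Quantile normalization of the libraries put Mt1 −12 bp at 0.14.

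**Figure D2:**
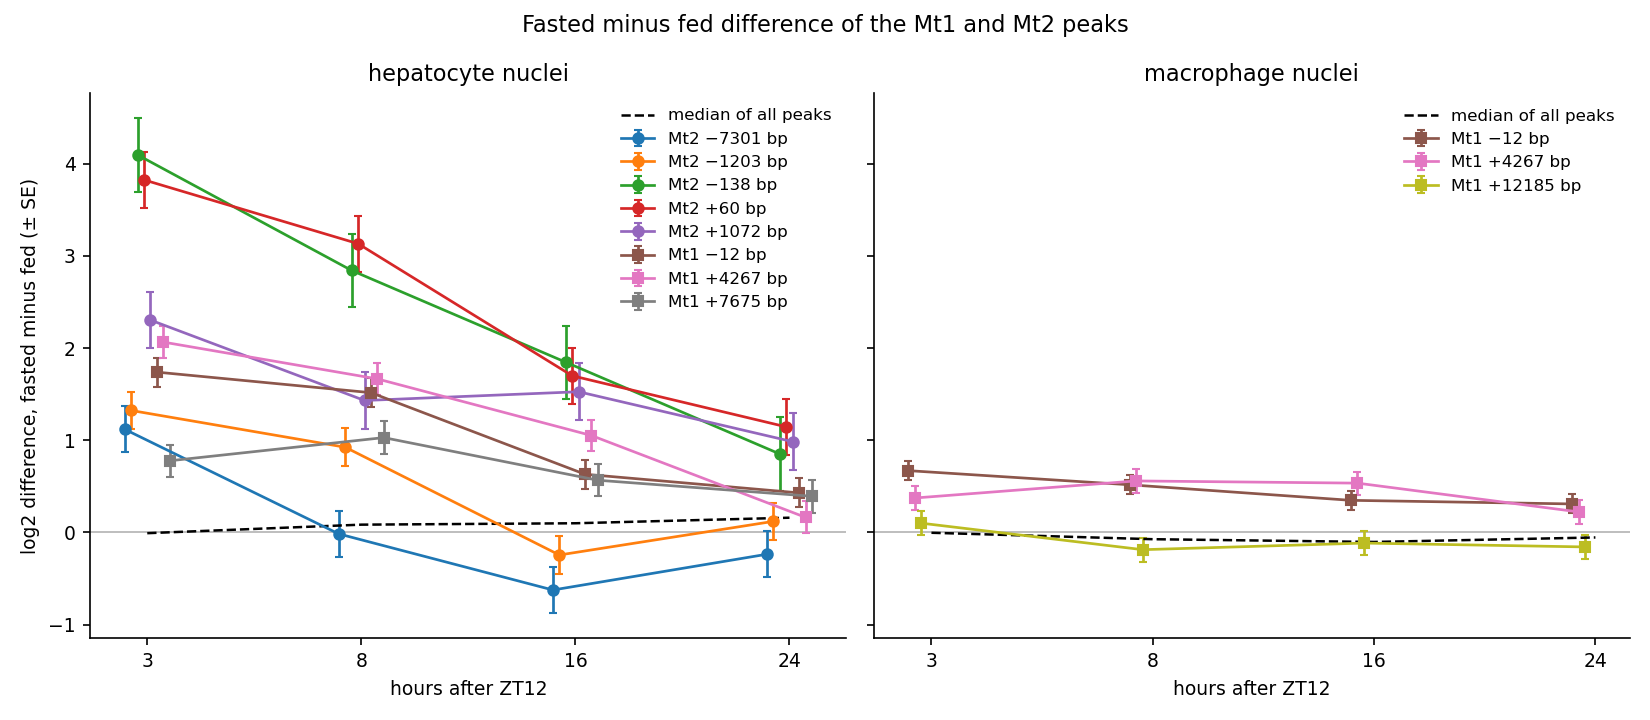
Fasted minus fed log2 difference (y axis, ± SE) of each member at 3, 8, 16 and 24 h after ZT12, in hepatocyte nuclei on the left and macrophage nuclei on the right, with the median of all peaks as a dashed line. The Mt2 start peaks begin at 4.10 and 3.82 in hepatocyte nuclei and end at 0.85 and 1.14, Mt2 −7301 bp reaches −0.63, and the highest macrophage value is 0.67.

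The upstream peaks of Mt2 were lowest at 16 h in fasted mice. In fasted mice, Mt2 −1203 bp had means of 124 ± 11.5, 99.9 ± 38.3, 54.8 ± 21.5 and 89.4 ± 14.8 normalized reads at 3, 8, 16 and 24 h (SD, n = 4), and time passed in the F test over the fasted groups (adjusted p = 0.000105, limma). Mt2 −7301 bp had 45.2 ± 9.56, 25.3 ± 13.4, 15.0 ± 3.35 and 25.9 ± 2.95 (adjusted p = 0.000162). Whether their course differs from that of the start was not tested.

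At 16 h, Mt2 −7301 bp had 11.2, 15.6, 19.2 and 14.0 normalized reads in fasted mice, against 22.4, 21.6, 21.6 and 30.8 in fed mice. All fasted mice were below all fed mice, the reverse of 3 h, when they had 55.4, 37.0, 51.3 and 37.1, against 12.2, 23.6, 26.7 and 18.1 in fed mice. The log2 difference was −0.63 ± 0.25 at 16 h and 1.12 ± 0.25 at 3 h. At 16 h, 8.14% of all hepatocyte peaks had every fasted mouse below every fed mouse. At Mt2 −1203 bp the groups overlapped at 16 h, with a difference of −0.25 ± 0.20.

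At +4267 bp time passed in fasted mice too (adjusted p = 0.000967, limma), with means of 141 ± 23.9, 129.9 ± 14.2, 127 ± 41.4 and 79.6 ± 13.1 normalized reads at 3, 8, 16 and 24 h (SD, n = 4). The fasted level was lowest at 24 h and the fed level highest, at 72.5 ± 22.7, so that the log2 difference was 0.16 ± 0.17. Mt2 −138 bp also passed in fasted mice (adjusted p = 0.0299), with its highest mean at 3 h and its lowest, 32.4 ± 9.70, at 24 h, but not without fasted 3 h replicate 1 (adjusted p = 0.0768) or 3 (0.0735) or fasted 24 h replicate 3 (0.101). Mt2 +1072 bp and Mt1 +7675 bp did not pass (adjusted p = 0.322 and 0.137).

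The fasted mice of a group differed from each other in a way that the members shared. At 16 h, Mt2 −138 bp had 20.7, 104, 93.0 and 26.2 normalized reads in fasted replicates 1 to 4, against 8.39, 10.5, 10.8 and 21.3 in fed mice. Replicates 2 and 3 were high, replicate 1 lay inside the fed range and replicate 4 just above it. Over the 8 members, replicate 2 was among the top 2 fasted mice at 7 peaks and replicate 3 at 8, while replicate 1 was lowest at 7. At 3 h, fasted replicate 1 was highest at all 8 members. The fasted mouse with the most reads in peaks was lowest at 6, 7 and 7 of the 8 members at 3, 8 and 24 h. These were replicates 2, 3 and 3. At 16 h that mouse was replicate 3, one of the high ones. Whether the order follows the depth of the libraries was not tested. The summed level of the 8 peaks was 499, 1016, 932 and 622 normalized reads in the fasted 16 h mice, against 389, 404, 411 and 451 in fed mice.

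In macrophage nuclei the Mt1 start was open in every group and the differences were smaller. Mt1 −12 bp, at the same position as in hepatocytes, had 282, 224, 291 and 294 normalized reads in fasted mice at 3 h, against 151, 197, 163 and 172 in fed mice. The groups did not overlap, and the log2 difference was 0.67 ± 0.10, with 0.52 ± 0.10, 0.35 ± 0.10 and 0.31 ± 0.10 at 8, 16 and 24 h. The tables were scaled separately, so that the levels and differences of both cell types are set side by side without a test.

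The +4267 bp peak, also shared, had 133, 126, 153 and 165 normalized reads in fasted macrophage nuclei at 8 h, against 115, 83.6, 95.8 and 95.4 in fed ones. The groups did not overlap at 8 h, where the log2 difference was 0.56 ± 0.13, and overlapped at 3, 16 and 24 h, where it was 0.37 ± 0.13, 0.53 ± 0.13 and 0.22 ± 0.13. Mt1 +12185 bp (chr8:94191174-94191374), an intergenic peak listed for macrophages alone, overlapped at all times, with differences between −0.19 and 0.10. Every fasted mouse stood above every fed mouse at 1, 2, 0 and 1 of the 3 members at 3, 8, 16 and 24 h, and at 4.57%, 3.47%, 3.31% and 4.89% of all macrophage peaks.

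The macrophage table lists no peak annotated to Mt2, so that the gene with the largest differences in hepatocytes has no value there. This says that no Mt2 peak is in the table, not that its promoter is closed in macrophages. At 16 h, Mt1 −12 bp had 341, 309, 242 and 181 normalized reads in fasted macrophage mice, against 204, 212, 192 and 210.2 in fed mice. Fasted replicate 4, with the fewest reads in peaks of its table (1729720), was the one below the fed range.

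Time passed in fed macrophage nuclei at Mt1 −12 bp as well, where 1.63% of all macrophage peaks did (adjusted p = 0.0116, limma). The fed means were 171 ± 19.4, 208 ± 12.0, 205 ± 8.77 and 246 ± 21.0 normalized reads at 3, 8, 16 and 24 h (SD, n = 4), lowest at ZT15 and highest at ZT12 as in hepatocytes, with a log2 difference of 0.53 ± 0.10 between 24 and 3 h. The result was lost without fed 3 h replicate 1 (adjusted p = 0.0711) or fed 24 h replicate 4 (adjusted p = 0.0544). The +4267 bp and +12185 bp peaks did not pass in fed mice (adjusted p = 0.694 and 0.758), and no member passed over time in fasted macrophage mice, where 19.2% of all peaks did (adjusted p = 0.252, 0.102 and 0.795 for −12, +4267 and +12185 bp). Of these, +4267 bp passed when each library was centred on its median (adjusted p = 0.0169).

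**Figure D3:**
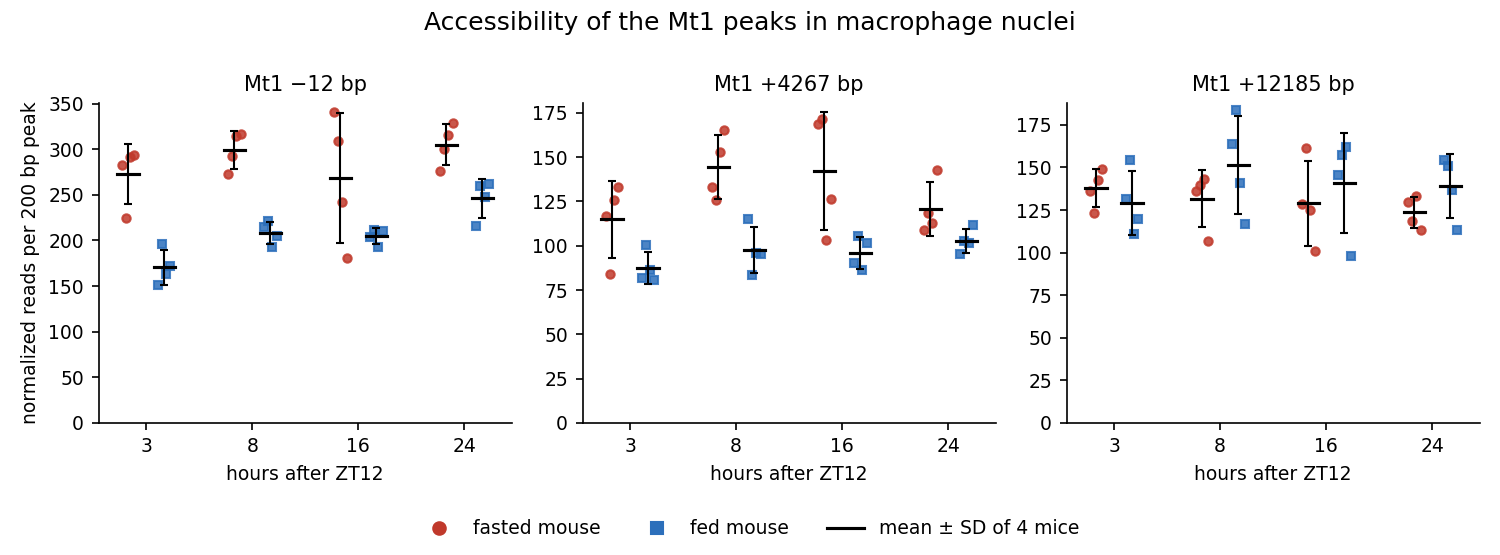
Normalized reads of the 3 macrophage members (y axes from 0) by hours after ZT12; circles are fasted mice and squares to their right fed mice, 4 a group, with bars for the mean ± SD. The fasted mice lie above the fed mice of Mt1 −12 bp at 3, 8 and 24 h, and the groups overlap throughout at Mt1 +12185 bp.

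Reads in peaks numbered 4334668 ± 821505 per hepatocyte mouse and 3492422 ± 693581 per macrophage mouse (SD, n = 32 each). Promoter peaks of 9 of 10 hepatocyte markers and 0 of 10 macrophage markers were listed in the hepatocyte table. The macrophage table listed those of 10 of 10 macrophage markers, 0 of 10 hepatocyte markers and 1 of 6 endothelial markers. A table lists only called peaks, so that a marker without one has no level here.

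Peaks of other genes of metal handling moved in both directions, and the shares that opened were near those of all hepatocyte peaks. The list of 39 zinc and copper genes held 106 hepatocyte peaks within 100 kb of the TSS of 36 of them; none was annotated to Mt3 or Mt4, the metallothioneins next to Mt2. In limma at an adjusted p under 0.05, 13 of the 106 opened (more reads in fasted mice) and 8 closed at 3 h, where 21.6% of all hepatocyte peaks were called. The counts were 22 opened and 10 closed at 8 h (34% of all peaks called), 21 and 6 at 16 h (31.8%), and 27 and 9 at 24 h (36.7%). The shares called were 19.8%, 30.2%, 25.5% and 34.0%, each below that of all peaks. The shares opened were 12.3%, 20.8%, 19.8% and 25.5%, near the 11.3%, 20.3%, 19% and 25.3% of all hepatocyte peaks. The list's median log2 difference was 0.01, 0.07, 0.13 and 0.17. With each library centred on its median, the split was 14 opened and 16 closed at 8 h and 17 and 9 at 16 h. With edgeR's scaling of the recovered reads, which put the median of all hepatocyte peaks at 0.03 rather than 0.16 at 24 h, it was 16 and 12 at 8 h, 11 and 10 at 16 h, and 14 and 10 at 24 h.

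Slc39a14 encodes ZIP14, a zinc and iron importer of the liver cell. Its intronic peak at +16855 bp had 80.7, 23.0, 74.2 and 34.7 normalized reads in fasted mice at 3 h, against 15.4, 8.85, 9.60 and 12.3 in fed mice. It opened by 1.88 ± 0.44 on the log2 scale (adjusted p = 0.00188, limma), with fasted replicates 1 and 3 high, as they were at Mt2 −138 bp, and it did not pass at 8, 16 or 24 h (adjusted p = 0.216, 0.281 and 0.470). At the starts of other zinc importers, Slc39a4 +278 bp had 131 ± 5.54 normalized reads in fasted and 78.4 ± 11.4 in fed mice at 3 h (adjusted p = 4.59e-05, limma). Slc39a10 −538 bp had 94.7 ± 8.02 and 58.2 ± 6.34 (adjusted p = 5.30e-05, limma), with its highest fasted value in replicate 4. Steap4 −27742 bp, near a metalloreductase that reduces iron and copper, closed to 40.9 ± 9.06 in fasted mice, against 91.0 ± 9.66 in fed mice (adjusted p = 9.53e-05).

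The promoters of the zinc sensor and of a zinc exporter did not pass at 3 h. Mtf1 −47 bp had 123 ± 11.6 normalized reads in fasted and 128 ± 12.3 in fed hepatocyte nuclei at 3 h (adjusted p = 0.739, limma), did not pass at 8 or 16 h (adjusted p = 0.294 and 0.0939), and was higher in fasted mice by 0.40 ± 0.10 at 24 h (adjusted p = 0.00177). Slc30a1 −125 bp, at the start of ZnT1, a known MTF1 target, had 141 ± 7.88 in fasted and 139 ± 19.9 in fed mice at 3 h (adjusted p = 0.877) and opened by 0.35 ± 0.10, 0.36 ± 0.10 and 0.44 ± 0.10 at 8, 16 and 24 h (adjusted p = 0.00461, 0.00510 and 0.000970, limma). Under quantile normalization Mtf1 at 24 h and Slc30a1 at 16 and 24 h no longer passed (adjusted p = 0.156, 0.0935 and 0.0856). Other peaks of both genes closed. Slc30a1 −25662 bp had 53.8, 54.5, 54.5 and 49.0 normalized reads in fasted mice at 3 h, against 71.9, 80.4, 70.6 and 69.6 in fed mice (adjusted p = 0.0112, limma). Slc30a1 −28906 bp closed at 16 h, with 17.7 ± 5.65 in fasted and 31.0 ± 3.55 in fed mice (adjusted p = 0.00305), and Mtf1 +7507 bp at 8 h, with 19.8 ± 4.56 and 37.0 ± 8.85 (adjusted p = 0.00331, limma). Less firm were the closing of Mtf1 +15417 bp at 8 h (adjusted p = 0.0286), lost without replicate 2 of the fasted or of the fed mice, and of Mtf1 +7507 bp at 16 h (0.0419), lost without fasted replicate 2 or 3 or fed replicate 2, 3 or 4. Slc30a1 −484 bp opened at 8 h (adjusted p = 0.0480, limma), lost without fasted replicate 1 or 3 or fed replicate 2, 3 or 4.

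Peaks of other zinc transporter genes opened at later times. At 8 h, Slc39a5 +2850 bp opened to 48.6 ± 8.33 in fasted mice, against 23.1 ± 5.11 in fed mice (adjusted p = 0.000125, limma). At 16 h, the promoter of Slc39a13, a zinc transporter of the secretory pathway, had 118 ± 9.41 in fasted and 64.7 ± 16.5 in fed mice (adjusted p = 0.000123). At 24 h the promoter of Slc39a7, which releases zinc from the same pathway, had 132 ± 16.0 in fasted and 86.1 ± 14.9 in fed mice (adjusted p = 0.000166, limma).

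In macrophage nuclei the same list held 53 peaks of 24 genes. It had 2 opened and 0 closed at 3 h (1.82% of all macrophage peaks called), 2 and 2 at 8 h (6.6%), 3 and 9 at 16 h (21.3%), and 1 and 6 at 24 h (11.3%). With median centring the split turned to 9 opened and 3 closed at 16 h, 3 and 1 at 8 h, and 3 and 4 at 24 h, so that no direction is given.

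The 14 glucocorticoid receptor targets held 174 hepatocyte peaks, of which 86 opened and 2 closed at 3 h, 59 and 9 at 8 h, 25 and 19 at 16 h, and 83 and 4 at 24 h. Among all hepatocyte peaks, 11.3%, 20.3%, 19% and 25.3% opened at these times. Their median log2 difference was 0.50, 0.27, 0.05 and 0.45. This list, like the others, was chosen with earlier results of these data known, and the peaks of a gene are not independent. Its counts are therefore a description. Klf9 −6212 bp, near a transcription factor induced by glucocorticoids, had 134 ± 19.0 normalized reads in fasted and 51.9 ± 3.67 in fed mice at 3 h (adjusted p = 6.43e-08, limma). Ddit4 +30675 bp, near a stress gene that restrains mTOR, had 135, 28.0, 129 and 71.1 in fasted and 4.49, 4.43, 6.17 and 7.25 in fed mice (adjusted p = 1.44e-07, limma). Its fasted replicates 1 and 3 were high again, but not all named peaks had this order. Herpud1 −23691 bp was highest in fasted replicates 1 and 4 at 3 h. In macrophage nuclei 33 of 85 peaks of this list opened at 3 h, 28 at 8 h, 15 at 16 h and 30 at 24 h, with 0, 1, 6 and 1 closed, and 1.68%, 1.63%, 3.79% and 3% of all macrophage peaks opened. With median centring the macrophage split at 16 h was 22 opened and 1 closed.

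The oxidative stress list held 132 hepatocyte peaks of 18 genes, with 11 opened and 13 closed at 3 h, 33 and 16 at 8 h, 23 and 15 at 16 h, and 29 and 10 at 24 h. The shares called were 18.2%, 37.1%, 28.8% and 29.5%, near the 21.6%, 34%, 31.8% and 36.7% of all hepatocyte peaks. With median centring the split was 20 and 16 at 8 h, 18 and 19 at 16 h, and 13 and 14 at 24 h, and edgeR gave 6 and 15 at 24 h. Srxn1 +78 bp, the start of sulfiredoxin, which repairs oxidised peroxiredoxins, had 94.7 ± 8.43 in fasted and 32.9 ± 1.33 in fed mice at 8 h (adjusted p = 5.93e-09, limma). Keap1 +3773 bp, in the gene of the NRF2 inhibitor, closed at 24 h, with 6.53 ± 1.84 in fasted and 23.8 ± 5.37 in fed mice (adjusted p = 1.20e-05). In macrophage nuclei the list's 78 peaks had 1, 1, 8 and 3 opened and 0, 1, 4 and 4 closed at 3, 8, 16 and 24 h, beside 1.82%, 6.6%, 21.3% and 11.3% of all macrophage peaks called. At 16 h they had 20 opened and 0 closed with median centring.

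Genes next to Mt1 and Mt2 did not all move with them. Of the 44 hepatocyte peaks of other genes within 500 kb of the member peaks, 18 opened and 0 closed at 3 h, 22 and 0 at 8 h, 9 and 5 at 16 h, and 13 and 0 at 24 h. The shares opened were 40.9%, 50.0%, 20.5% and 29.5%, beside 11.3%, 20.3%, 19% and 25.3% of all hepatocyte peaks, so that those at 16 and 24 h were near the share of all peaks. With median centring the split was 6 and 5 at 16 h and 7 and 1 at 24 h. The nearest was the promoter of Nup93, a nuclear pore protein, 41.8 kb from the Mt2 TSS, which had log2 differences of 0.02, 0.09 and 0.16 at 3, 8 and 16 h and did not pass, and 0.34 at 24 h (adjusted p = 0.00313, limma). On the other side, Bbs2 +616 bp, 74.4 kb from the Mt2 TSS, opened by 0.55, 0.76 and 0.79 at 3, 8 and 24 h (adjusted p = 0.0216, 0.000855 and 0.000815, limma). It did not pass at 16 h (adjusted p = 0.279), and Bbs2 +309 bp passed at 24 h alone (adjusted p = 0.0211). Herpud1, a gene of protein disposal at the endoplasmic reticulum, 186 to 229 kb away, held 16 peaks.

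Of the 16 Herpud1 peaks, 12 opened at 3 h and 8 at 8 h, with none closed, while 1 opened and 4 closed at 16 h and 4 opened at 24 h (11.3%, 20.3%, 19% and 25.3% of all hepatocyte peaks opened). Herpud1 −23691 bp had 48.1, 30.5, 37.1 and 45.8 normalized reads in fasted mice at 3 h, against 10.9, 14.8, 8.91 and 15.2 in fed mice (adjusted p = 1.35e-05, limma), and the highest log2 difference among the 16 was 2.04. All 3 peaks of Slc12a3, a sodium and chloride cotransporter gene beside Herpud1, opened at 3 and at 8 h. Herpud1 −27536 bp was 35.8 ± 11.8 in fasted and 62.8 ± 7.92 in fed mice at 16 h (adjusted p = 0.000660), when Mt2 −7301 bp was also below its fed level. None of the 5 macrophage peaks of Herpud1 opened at any time, and 1 closed at 16 h.

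**Figure D4:**
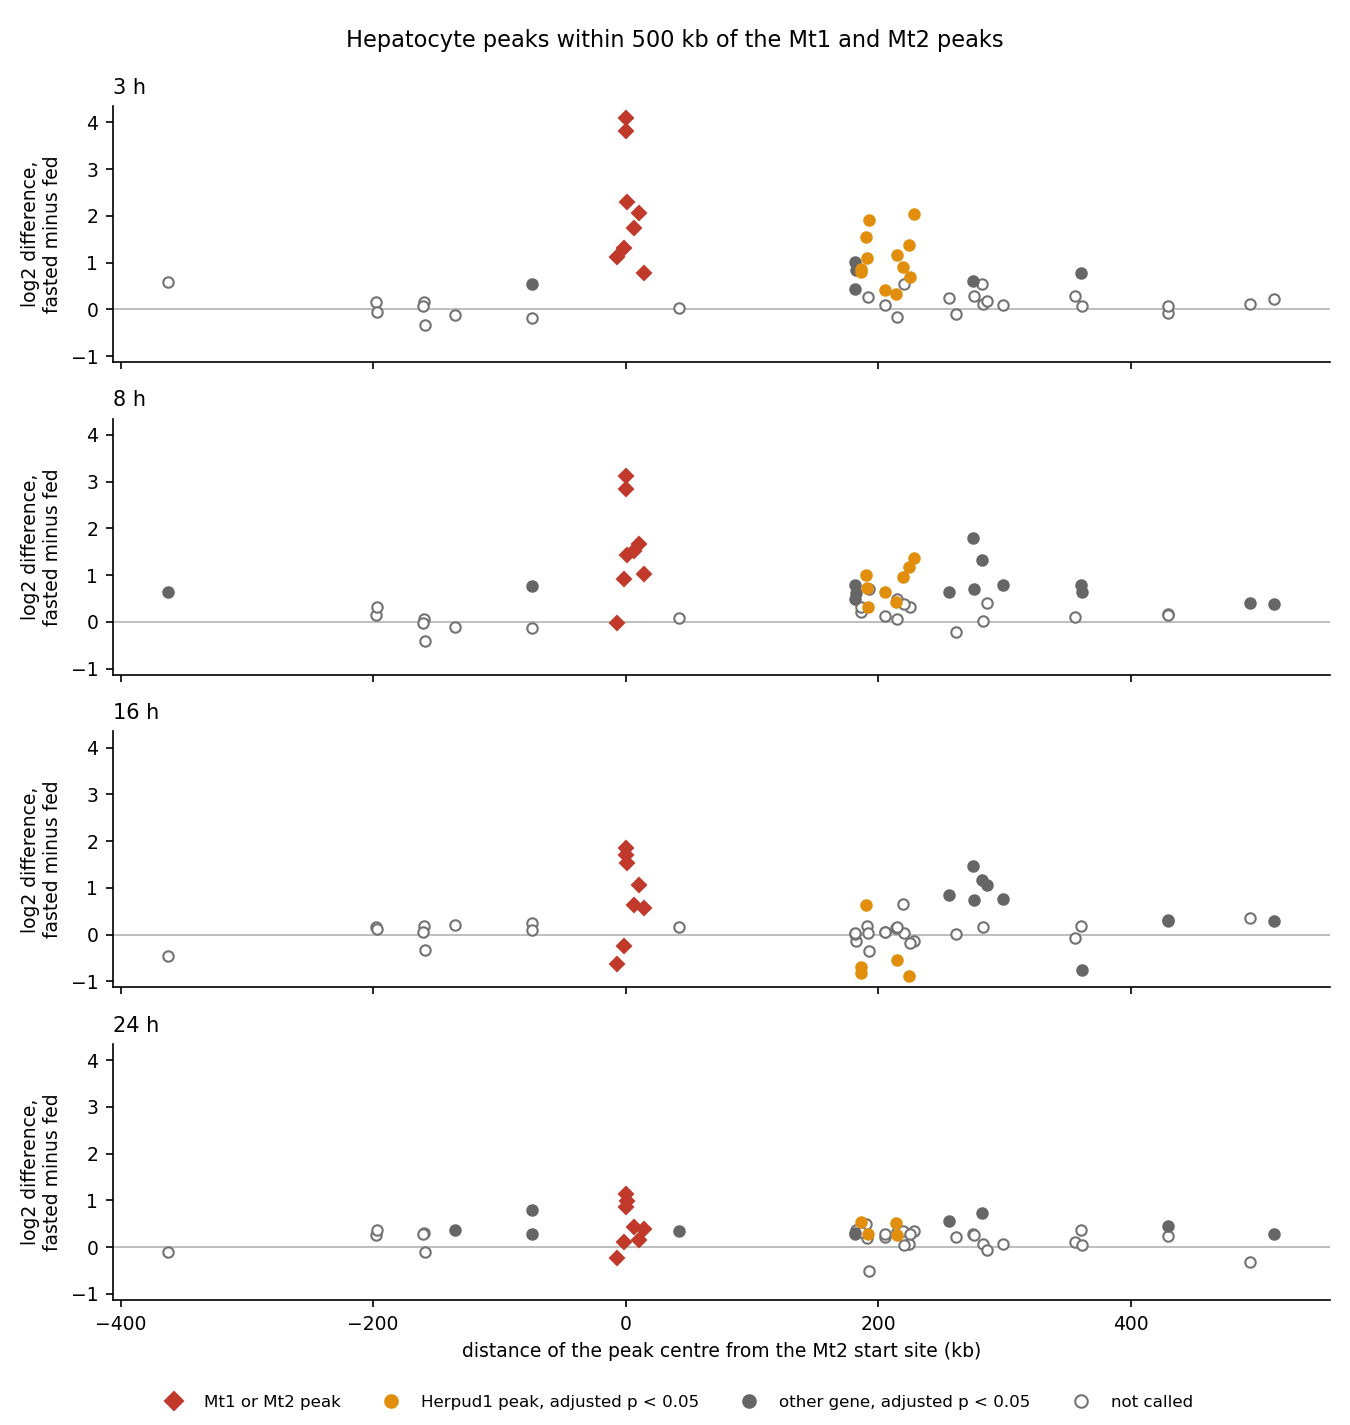
Fasted minus fed log2 difference (y axes) of each hepatocyte peak within 500 kb of the member peaks by its distance from the Mt2 start site in kb (x axis), a panel for each of 3, 8, 16 and 24 h; diamonds are members, filled circles peaks at an adjusted p under 0.05 (Herpud1 in orange) and open circles the others. Opened peaks of Herpud1 and Slc12a3 stand 181 to 229 kb away at 3 h, and the Nup93 promoter between them and the members has 0.02.

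Over the 32 hepatocyte mice, the mean log2 level of the 3 start peaks (Mt2 −138 and +60 bp and Mt1 −12 bp) had its highest correlations with peaks near Cmip, Ell, Lima1, Zbtb16, Eif1a and Med18, 1 peak per gene. Pearson's r was 0.92 for Cmip −9794 bp, 0.90 for Ell −1462 bp and 0.89 for the other 4, against a median of 0.16 over the 46819 other peaks. Cmip −9794 bp, an intronic site on the same chromosome, had 66.8 ± 10.7 normalized reads in fasted and 23.3 ± 1.15 in fed mice at 3 h, and 65.6 ± 3.41 and 46.8 ± 5.17 at 24 h (SD, n = 4 each). Among the members outside the mean, r was 0.96 for +4267 bp, 0.85 for +7675 and +1072 bp, 0.67 for −1203 bp and 0.28 for −7301 bp. The mice share their libraries and the feeding contrast between these peaks, so that r is a description.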

How the data were processed

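The authors deposited, for each cell type, a table of normalized signal per peak and mouse, reads in 200 bp peaks of mm10 with the nearest gene and its distance. BWA 0.7.5a-r405, SAMtools, HOMER and DESeq2 are named in the submitters' processing notes without a role. How peaks were called is not given in the sources used here. The 2 sequencing runs of each macrophage mouse form 1 column. Each deposited signal column was a whole number of reads times 1 factor in 100% of values (tolerance 0.01). Peaks with a mean of at least 10 (46827 hepatocyte, 30170 macrophage) were fitted with limma 3.58.1 (trend) on log2(value + 2), with 8 group means per table. P-values were Benjamini-Hochberg adjusted over all peaks of a table, and a peak was called at an adjusted p under 0.05. R was 4.3.3 and Python 3.11.15. The recovered reads were also tested with edgeR 4.0.16 and DESeq2 1.42.0. The fits were tested on simulated data. All 64 mice were used, and replicates are separate mice. The members and gene lists were chosen with earlier results of these data known. The text names peaks of Mtf1, Slc30a1 and Slc39a14. From each list and time it draws on up to 3 called peaks with the smallest p, non-overlapping groups and 1 peak a gene. Of the genes within 500 kb, it names some of those with a called peak. It also names 6 genes by likeness. Deviations from the group means had a mean correlation of 0.00188 between libraries of the same set of library numbers and −0.00104 between those of other sets in hepatocyte nuclei, and of 0.0326 and −0.0325 in macrophage nuclei, and the sets were not taken to pair the mice. Quantile normalization, median centring, other offsets and filters, and leaving out each mouse were tried.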

Additional observations from a re-analysis of the deposited data

Results flagged for a closer look

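In groups of 4 mice, a mouse was singled out by its gap to the nearest of the others. As a share of the group's range, the gap had to pass Dixon's critical value, which chance gives in about 1 in 20 groups. Each of the 11 members was searched in 8 groups, so that some of the mice below are due by chance. In hepatocyte nuclei, Mt2 −138 bp had 49.0 normalized reads in fed 24 h replicate 3, and the same mouse had 106 at Mt1 +4267 bp, each far above the other 3 fed mice. Fed 16 h replicate 4 was high at Mt2 −7301 bp, with 30.8, and fed 16 h replicate 2 low at Mt1 +4267 bp, with 51.6. Fasted 8 h replicate 3 was low at Mt2 +60 bp, with 135. In macrophage nuclei, fasted 3 h replicate 2 was low at Mt1 −12 bp, with 224. At Mt2 −7301 bp in hepatocyte nuclei, every fasted mouse was above every fed mouse at 3 h (log2 difference 1.12) and below at 16 h (−0.63). The difference between these times was not tested.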

How the results depend on the processing

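Of the recomputed member differences, 649 stayed within the spread between mice and 11 moved by more. No member difference larger than that spread turned its direction, nor did a called difference of a list peak. A smaller member difference could change its sign and still count as staying, as +4267 bp at 24 h did in edgeR. Mt2 +60 bp at 3 h was 3.25 with an offset of 8, Mt1 −12 bp at 24 h 0.14 under quantile normalization, and macrophage Mt1 −12 bp at 8 h 0.63 with median centring. The replicate block (sets of library numbers as a covariate) left the difference of Mt2 +60 bp at 3 h at 3.82. It could not do otherwise, because each set held as many fasted as fed mice at each time. The 649 include such results, and the block can change only the spread and the calls. In macrophage nuclei it raised the peaks called at 8 h (564 opened and 1906 closed, against 493 and 1497 without it) and gave 6 opened and 10 closed of the zinc and copper list at 16 h, against 3 and 9. At 24 h, edgeR put +4267 bp at −0.01, against 0.16 in limma. Leaving out 1 mouse gave adjusted p between 0.0123 and 0.0698 for Mt2 −1203 bp in fed mice over time, between 0.0138 and 0.101 for Mt2 −138 bp in fasted mice, between 0.00448 and 0.0711 for macrophage Mt1 −12 bp in fed mice, and between 0.0349 (without fasted 16 h replicate 1) and 0.408 in fasted mice. Macrophage Mt1 +4267 bp in fasted mice had 0.0169 with median centring, 0.0121 in edgeR and between 0.0180 and 0.284 with 1 mouse left out. The alternatives for fasted mice over time were chosen after the data were seen. Of the zinc and copper list, peaks called in hepatocyte nuclei numbered 12 at 3 h and 21 at 8 h within 10 kb, 21 to 30 at 8 h with 1 mouse left out, 14 at 16 h and 21 at 24 h under quantile normalization, and 23 at 24 h in DESeq2. In macrophage nuclei they numbered 1 at 3 h with median centring, in edgeR and in DESeq2, and 2 at 8 h, 6 at 16 h and 4 at 24 h within 10 kb, with 6 at 16 h under quantile normalization. With 1 mouse left out they were 0 to 2 at 3 h, 0 to 5 at 8 h and 7 to 13 at 16 h. The low fed counts of Mt2 −138 bp limit its difference, which was 3.04 at 3 h with an offset of 8.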
